A study of Mus musculus with 9 samples.

Results

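The genes of 8 RNA-binding proteins that act on the lifetime of inflammatory messenger RNAs were followed through ventilator-induced lung injury (VILI) in whole mouse lung: Zfp36, Zfp36l1, Zfp36l2, Zc3h12a, Zc3h12c, Rc3h1, Rc3h2 and Elavl1. They were picked by gene symbol from the 27203 genes and loci of the expression table, with earlier results of these data known. Each was found, and all 8 passed the minimum mean of 0.1 FPKM (a read count scaled to transcript length and sequencing depth) that left 19378 genes for testing. The first 7 encode proteins with CCCH zinc fingers, while Elavl1 (HuR) binds RNA through RNA recognition motifs and has no such finger, so the name CCCH-type decay factors covers 7 of the 8.

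The lungs came from male C57BL/6 mice of 6 to 8 weeks, 3 mice per group and 1 library per mouse. VILI 0 hours mice were killed at the end of 4 hours of mechanical ventilation at a tidal volume of 20 ml/kg without end-expiratory pressure, and VILI 6 hours mice were killed 6 hours after the same ventilation. Control mice were intubated and not ventilated. Ketamine and xylazine anesthesia and intubation were common to the 3 groups, whereas pancuronium was described for the ventilated mice, so ventilation, muscle relaxation and the hours that passed cannot be told apart. The comparisons ask which of the 8 genes differed from control at the end of ventilation, which differed 6 hours later, and which differed between the time points. In whole lung, fewer cells of a type and less RNA per cell cannot be told apart.

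ZFP36 (tristetraprolin) and its relatives ZFP36L1 and ZFP36L2 bind AU-rich elements in the 3′ untranslated region (3′ UTR) of short-lived mRNAs and recruit the CCR4-NOT deadenylase, which removes the poly(A) tail. Regnase-1, the product of Zc3h12a, is an endonuclease that cuts stem-loops in cytokine mRNAs such as Il6, and Zc3h12c encodes its relative Regnase-3. Roquin-1 and Roquin-2, encoded by Rc3h1 and Rc3h2, bind stem-loops in mRNAs such as Tnf and Icos and also bring in deadenylases. ELAVL1 binds AU-rich elements as well but is known mainly for stabilising the mRNAs that carry them. Zfp36 is a classical immediate early gene, and ZFP36 is known to bind the AU-rich elements of its own mRNA.

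Promoter windows of 300 bases, which begin upstream of the transcription start and end shortly after it, were taken from RefSeq (GRCm38.p6) for 7 of the 8 genes, since Zfp36l2 had no entry. Those of Zfp36 and Zfp36l1 are shown because these relatives moved in opposite directions, and capitals mark the matched motifs. The 5′ to 3′ sequences of the Zfp36 window (chr7:28379179-28379478, minus strand) and the Zfp36l1 window (chr12:80112964-80113263, minus strand) were as follows.
Zfp36: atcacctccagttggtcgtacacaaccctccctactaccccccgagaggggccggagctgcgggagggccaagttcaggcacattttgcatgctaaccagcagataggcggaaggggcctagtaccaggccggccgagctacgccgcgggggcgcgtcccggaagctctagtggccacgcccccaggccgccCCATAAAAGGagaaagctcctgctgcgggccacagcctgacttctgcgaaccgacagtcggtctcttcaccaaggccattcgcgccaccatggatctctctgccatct
Zfp36l1: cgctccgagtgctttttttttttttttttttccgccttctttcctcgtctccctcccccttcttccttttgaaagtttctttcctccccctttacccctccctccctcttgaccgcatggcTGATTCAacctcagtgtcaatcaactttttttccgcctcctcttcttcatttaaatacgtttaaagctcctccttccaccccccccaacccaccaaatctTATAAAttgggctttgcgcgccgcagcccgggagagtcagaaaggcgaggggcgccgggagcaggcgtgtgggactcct

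Both strands were searched for the TATA box TATAAA, the AP-1 motif TGANTCA, the cAMP response element TGACGTCA, the EGR motif GCGTGGGCG, the STAT motif TTCCNGGAA, the kappaB consensus and the CArG box, the site of serum response factor. Zfp36 held 1 match, a CArG box that begins 58 bases before the start, a motif held by 1.63% of 32851 promoter windows. Zfp36l1 held a TATA box 29 bases before the start (13.6% of windows) and a match to the AP-1 motif 129 bases before it (7.81%). That match was TGATTCA, since the search left the middle base free. In Rc3h1 the match was an AP-1 motif 133 bases before the start. In Zc3h12c it was a kappaB consensus (8.46%) 236 bases before the start of the window at chr9:52168357-52168656. The other Zc3h12c window, for another start at chr9:52149314-52149613, held none of the 7 motifs. The Zc3h12a, Rc3h2 and Elavl1 windows held none of the 7 motifs, which says only that these letters are not in these windows. The EGR motif (0.612%), STAT motif (1.15%) and cAMP response element (1.79%) were in none of the members' windows.

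The mRNAs of the family can be targets as well as agents. In the longest annotated 3′ UTR of each gene (GENCODE M21, GRCm38), the nonamer TTATTTATT, the best known ZFP36 site, was present once each in Zfp36, Zfp36l1, Zfp36l2, Rc3h1 and Rc3h2 and 8 times in Elavl1, and absent from Zc3h12a and Zc3h12c. Of 15150 genes tested that had an annotated 3′ UTR, 7.85% held it, at a median length of 1109.5 bases against 2948.5 for the 8 members, and a longer sequence has more room for a match. The shorter core TATTTAT was found in 7 of the 8 members and 29% of all genes. For the members that changed and for Elavl1, the 30-base window richest in these elements (nonamers first, then cores, then pentamers) is shown, beside those of Cxcl2, a neutrophil chemokine, and Il1b, a cytokine, both known targets whose values are given later. Capitals mark each ATTTA pentamer.
Zfp36 (chr7:28376961-28376990, minus strand): ggccctttATTTAtgacgactttATTTAtt
Zfp36l1 (chr12:80108177-80108206, minus strand): aaaatgcaaaaaactgttggattATTTAtt
Zc3h12a (chr4:125119058-125119087, minus strand): tgttgatacacattgtatctctgtcATTTA
Elavl1 (chr8:4285777-4285806, minus strand): ttATTTATTTATTTATTTAtttttATTTAt
Cxcl2 (chr5:90905325-90905354, plus strand): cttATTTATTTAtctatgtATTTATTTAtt
Il1b (chr2:129364807-129364836, minus strand): aaccacttacctATTTATTTAtgtATTTAt

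The values were FPKM without the read counts behind them, so no counting interval is given and the precision of each value rests on the 3 mice of a group. A gene's FPKM was the sum of its rows in the table. Comparisons used limma on log2(FPKM + 0.1) over all genes, and a gene is said to rise or fall where its unadjusted P was under 0.05, the threshold of the study, with the Benjamini-Hochberg adjusted p beside it. No member passed an adjusted p of 0.05 in any comparison with all 9 libraries. By the unadjusted rule 3130 genes (16.2%) were called at 0 hours, 3952 (20.4%) at 6 hours and 1938 (10%) between the time points, of which 55 (0.284%), 136 (0.702%) and 0 (0%) passed the adjusted threshold. Of the calls against control, 1319 were higher and 1811 lower at 0 hours, and 1583 were higher and 2369 lower at 6 hours. Centring the libraries on their medians shifted every log2 fold change against control upward by 0.11 at 0 hours and 0.13 at 6 hours, and the higher calls then numbered 1944 of 3176 and 2270 of 3910.

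Cell type markers differed between the groups. The summed FPKM of 12 neutrophil markers, led by S100a9, S100a8 and Retnlg, was 54.2 to 66.0 in control lungs, but 585 to 1057 at 0 hours and 498 to 2218 at 6 hours, and none of the 12 was listed at 0 in all libraries. Of these markers 10 rose at 0 hours and 11 at 6 hours. Summed macrophage markers ran from 275 to 350.5 in control lungs, 406 to 480 at 0 hours and 298 to 717 at 6 hours, whereas those of alveolar type 2 cells, 12890 to 15980 over all 9 libraries, overlapped between the groups, as did alveolar type 1 markers at 1105 to 1611 and fibroblast markers at 485 to 698. By gene, 3 of 6 fibroblast markers fell at 6 hours, Col1a2, Col3a1 and Lum, the last by 1.09 on the log2 scale (limma, adjusted p = 0.0389), and at 0 hours 2 fell and 1 rose. Of 10 macrophage markers 3 rose at 0 hours and 4 at 6 hours, of 9 T and B cell markers 1 and 3 fell, and of 7 endothelial markers 1 rose at 0 hours and 2 fell at 6 hours. Alveolar type 1 markers gave 2 of 6 higher at each time and 1 lower at 6 hours, alveolar type 2 markers 1 of 7 higher at 0 hours and 1 lower at 6 hours, and cardiac muscle markers no call. Endothelial markers were 822 to 857 in control and 861 to 959 in VILI 0 hours lungs, T and B cell markers 55.9 to 74.2 in control and 18.6 to 49.6 in VILI 6 hours lungs, and cardiac muscle markers overlapped, the highest sum being 367 in VILI 0 hours replicate 3. VILI 6 hours replicate 3 had the highest neutrophil sum and VILI 6 hours replicate 1 the lowest of the 6 ventilated lungs.

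Zfp36 mRNA was raised in every ventilated lung. Its FPKM was 34.6, 30.3 and 31.3 in control replicates 1 to 3, 60.7, 73.6 and 116.5 in the VILI 0 hours replicates and 40.1, 88.2 and 116.5 in the VILI 6 hours replicates. All 6 ventilated values were above the highest control, the closest being VILI 6 hours replicate 1. The mean went from 32.1 ± 2.25 (SD, n = 3) in control to 83.6 ± 29.2 at 0 hours and 81.6 ± 38.6 at 6 hours.

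On the log2(FPKM + 0.1) scale Zfp36 rose by 1.33 (SE 0.36) at 0 hours, 2.51-fold, with a 95% interval of 0.52 to 2.13 on the log2 scale (limma, adjusted p = 0.123). At 6 hours it rose by 1.21 (SE 0.36), 2.32-fold, with an interval of 0.41 to 2.02 (limma, adjusted p = 0.128). Between 6 and 0 hours the log2 difference was -0.11, with an interval of -0.92 to 0.69 that leaves room for a change in either direction (limma, adjusted p = 0.945). Both rises stayed under the unadjusted threshold in all 18 alternative analyses, with log2 values of 1.06 to 1.64 at 0 hours and 0.89 to 1.70 at 6 hours. Without VILI 6 hours replicate 1 the 6 hours rise was 1.66 (limma, adjusted p = 0.00319), and the 0 hours rise then had an adjusted p of 0.011, because the groups share one estimate of the spread. The exact two-sided permutation p was 0.1 for each, the smallest that 3 against 3 libraries can give. The neutrophil marker sum was higher in the same 6 lungs, and among the VILI 6 hours lungs it had the same order as Zfp36, while among the VILI 0 hours lungs replicate 2 had the highest sum and replicate 3 the highest Zfp36. The part of neutrophils in the rise was not tested.

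**Figure D1:**
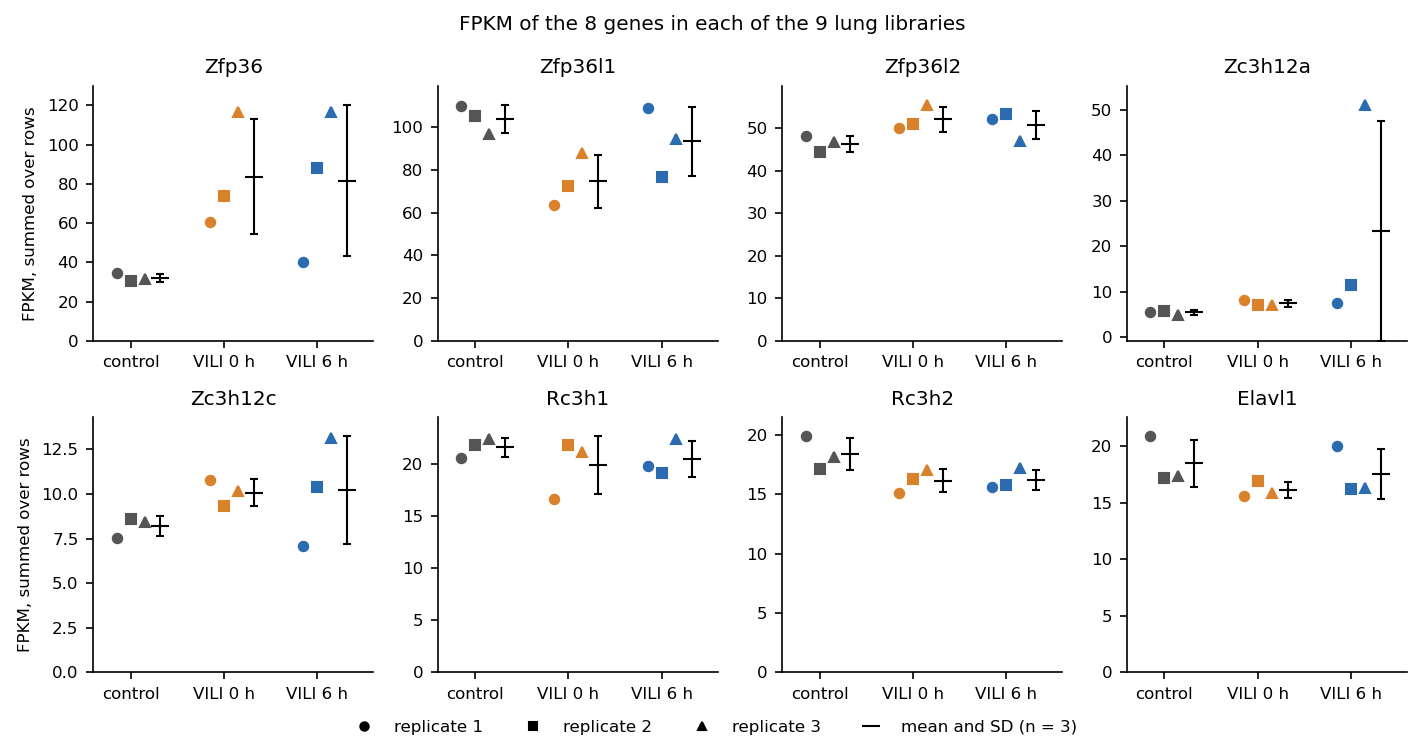
FPKM of the 8 genes (vertical axes, summed over the rows of a gene, a separate scale for each panel) in the 9 libraries (points, with a symbol for each replicate number) of the control, VILI 0 h and VILI 6 h groups, with mean and SD beside each group (n = 3). Zfp36 lay above the control range of 30.3 to 34.6 in all 6 ventilated lungs, and Zc3h12a reached 51.2 in 1 VILI 6 hours lung and 11.5 or less in the other two.

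Zfp36l1, the most abundant of the 8 in control lung, fell at the end of ventilation. Its FPKM was 109.7, 105.1 and 96.8 in control, 63.4, 72.7 and 87.9 in VILI 0 hours and 109, 76.8 and 94.3 in VILI 6 hours lungs. The VILI 0 hours values all lay below the lowest control, while at 6 hours the first replicate was within the control range and the other two below it. The means were 103.9 ± 6.54 in control, 74.6 ± 12.4 at 0 hours and 93.4 ± 16.1 at 6 hours (SD, n = 3).

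Zfp36l1 fell by 0.49 on the log2 scale at 0 hours, to 0.713 of control, with an interval of -0.83 to -0.14 (limma, adjusted p = 0.172). This call also held in all 18 alternatives, from -0.61 to -0.37. At 6 hours the log2 difference from control was -0.17, with an interval of -0.51 to 0.18 (limma, adjusted p = 0.546). From 0 to 6 hours it was 0.32, with an interval of -0.02 to 0.66 (limma, adjusted p = 0.522), and that difference passed P under 0.05 in 3 of the alternatives, with median-centred libraries (0.33), without VILI 0 hours replicate 3 (0.45) and without VILI 6 hours replicate 2 (0.45).

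Zfp36l2, which is known best from lymphocyte and blood cell development, was called in no comparison with the main settings. It measured 48.1, 44.4 and 46.7 FPKM in control, 50.0, 51.0 and 55.5 in VILI 0 hours and 52.1, 53.3 and 47.1 in VILI 6 hours lungs. The VILI 0 hours values lay just above the controls and the VILI 6 hours values overlapped them. Its log2 difference from control was 0.17 (interval -0.03 to 0.37; limma, adjusted p = 0.388) at 0 hours and 0.13 (interval -0.07 to 0.33; adjusted p = 0.414) at 6 hours, and each passed the unadjusted threshold with median-centred libraries (0.28 and 0.26), as the first did with only the 6 libraries compared. Between the time points its difference was -0.04, with an interval of -0.24 to 0.16.

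Because FPKM is per transcript length, the family's makeup could be set side by side, a summary chosen after the values had been seen and given with no test. Zfp36 made up 18.0%, 16.9% and 17.9% of the summed FPKM of the 3 relatives in control lungs, 34.9%, 37.3% and 44.8% in VILI 0 hours lungs and 19.9%, 40.4% and 45.2% in VILI 6 hours lungs. Zfp36l1 made up 57.0%, 58.5% and 55.4% in control, 36.4%, 36.8% and 33.8% in VILI 0 hours and 54.1%, 35.2% and 36.6% in VILI 6 hours lungs. For both genes the shares of control and ventilated lungs did not overlap, and VILI 6 hours replicate 1 had shares close to those of control. The shares are of one sum, so a rise of Zfp36 lowers that of Zfp36l1, whose own FPKM overlapped the controls at 6 hours. The Zfp36l2 share ran from 18.3% to 28.7% and overlapped between groups.

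The summed FPKM of the family was 192, 179.8 and 175 in control, 174, 197 and 260.0 in VILI 0 hours and 201, 218 and 258 in VILI 6 hours lungs. The VILI 0 hours sums spanned the control range and the VILI 6 hours sums lay above it. Zfp36 exceeded Elavl1, its counterpart on AU-rich elements, 1.66 to 1.80 times in the control lungs, 3.88 to 7.35 times at 0 hours and 2 to 7.15 times at 6 hours. That ratio was also chosen after the values had been seen.

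**Figure D2:**
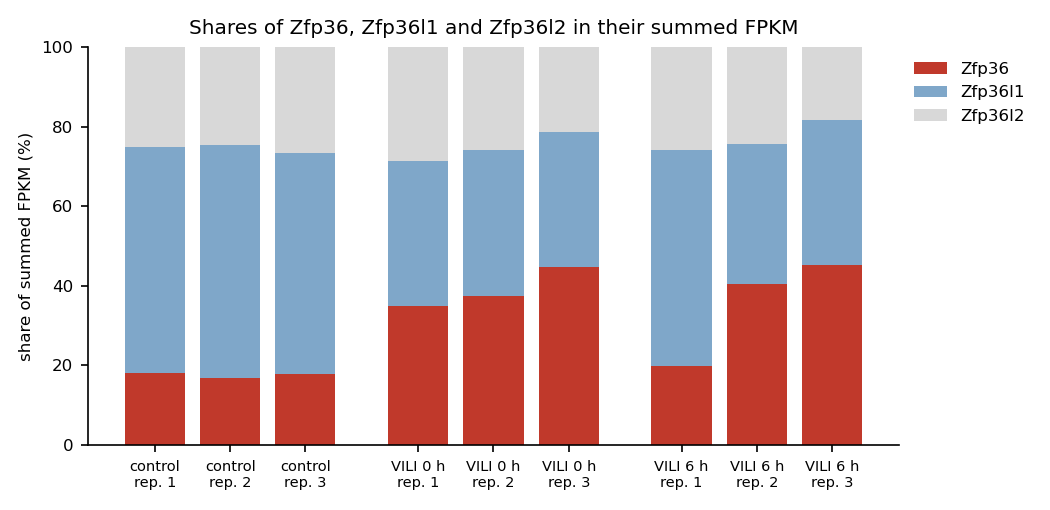
Share of the summed FPKM (percent, stacked to 100) that Zfp36, Zfp36l1 and Zfp36l2 took in each of the 9 libraries, 1 bar per library. Zfp36 took 16.9% to 18.0% in control lungs and 34.9% to 45.2% in 5 of the 6 ventilated lungs, with 19.9% in VILI 6 h replicate 1.

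The table listed 2 rows for Zfp36, the first with 29.2% and the second with 70.8% of its FPKM over all libraries, and no transcript names, so the rows could not be matched to annotated transcripts. Row 2 measured 17.6, 16.6 and 18.2 FPKM in control, 44.0, 46.0 and 79.3 in VILI 0 hours and 25.3, 73.9 and 98.4 in VILI 6 hours lungs, all ventilated values above the controls. Row 1 measured 17.0, 13.7 and 13.1 in control, 16.7, 27.6 and 37.3 in VILI 0 hours and 14.9, 14.3 and 18.0 in VILI 6 hours lungs. The row 1 values of VILI 6 hours lungs thus overlapped those of control.

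Tested as rows, among which 11% were called at 0 hours, 13.2% at 6 hours and 7.4% between the time points, row 2 rose by 1.64 on the log2 scale at 0 hours (limma, adjusted p = 0.280) and by 1.70 at 6 hours (adjusted p = 0.230). Row 1 rose by 0.82 at 0 hours (limma, adjusted p = 0.336), differed from control by 0.11 at 6 hours (adjusted p = 0.891) and fell by 0.72 from 0 to 6 hours (adjusted p = 0.630), a call that was lost without VILI 0 hours replicate 3 (log2 -0.45). Whether the rows differed from each other in their change was not tested. The second row of Zfp36l1 was listed at 0 in all 9 libraries, and Zfp36l2 had 1 row.

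**Figure D3:**
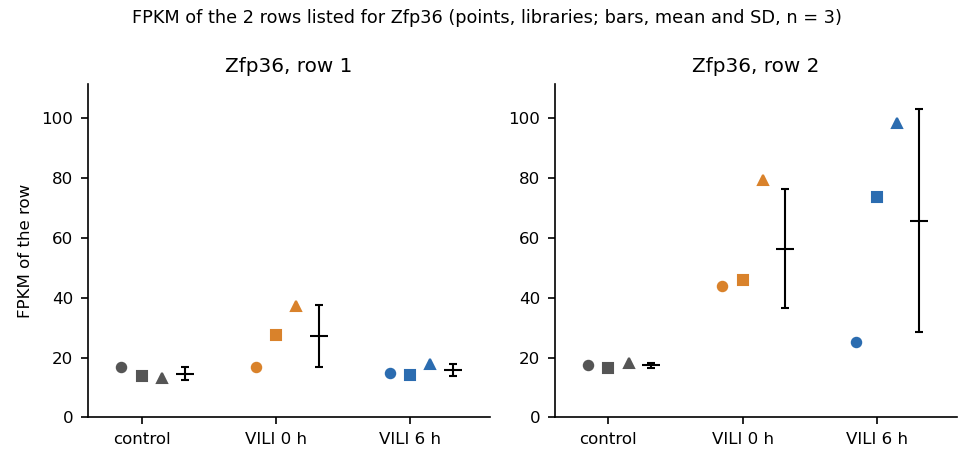
FPKM of row 1 (left) and row 2 (right) of Zfp36 on a common axis in each library (points), with mean and SD (n = 3) of the control, VILI 0 h and VILI 6 h groups. Row 2 was 25.3 to 98.4 in the 6 ventilated lungs and at most 18.2 in control, whereas row 1 at 6 hours, 14.3 to 18.0, overlapped the control values of 13.1 to 17.0.

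Zc3h12a, the Regnase-1 gene, rose at 6 hours. Its FPKM was 5.54, 5.80 and 4.89 in control, 8.25, 6.97 and 7.03 in VILI 0 hours and 7.48, 11.5 and 51.2 in VILI 6 hours lungs. Every ventilated lung was above every control, but VILI 6 hours replicate 3 stood far above the other 8 libraries. The means were 5.41 ± 0.468, 7.41 ± 0.727 and 23.4 ± 24.1 (SD, n = 3).

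The 6 hours rise of Zc3h12a was 1.59 on the log2 scale (SE 0.56), 3.00-fold, with an interval of 0.34 to 2.84 (limma, adjusted p = 0.171). Without VILI 6 hours replicate 3 it was 0.77 (limma, adjusted p = 0.15), and without VILI 6 hours replicate 1 it was 2.15 (adjusted p = 0.0163). All 18 alternatives kept it under the unadjusted threshold, most narrowly without control replicate 3. At 0 hours the log2 difference was 0.45, with an interval of -0.80 to 1.70 (limma, adjusted p = 0.735), where the spread was shared with the VILI 6 hours group. The same difference passed the unadjusted threshold with only the 6 libraries compared (adjusted p = 0.0591) and without VILI 6 hours replicate 3 (adjusted p = 0.189, limma). From 0 to 6 hours the log2 difference was 1.14, with an interval of -0.11 to 2.39 (limma, adjusted p = 0.535). That difference was 1.70, past the unadjusted threshold, without VILI 6 hours replicate 1, and 0.32 without VILI 6 hours replicate 3. The neutrophil marker sum of VILI 6 hours replicate 3, 2218 FPKM, was the highest of the 9 libraries, and its part in the Zc3h12a value was not tested.

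**Figure D4:**
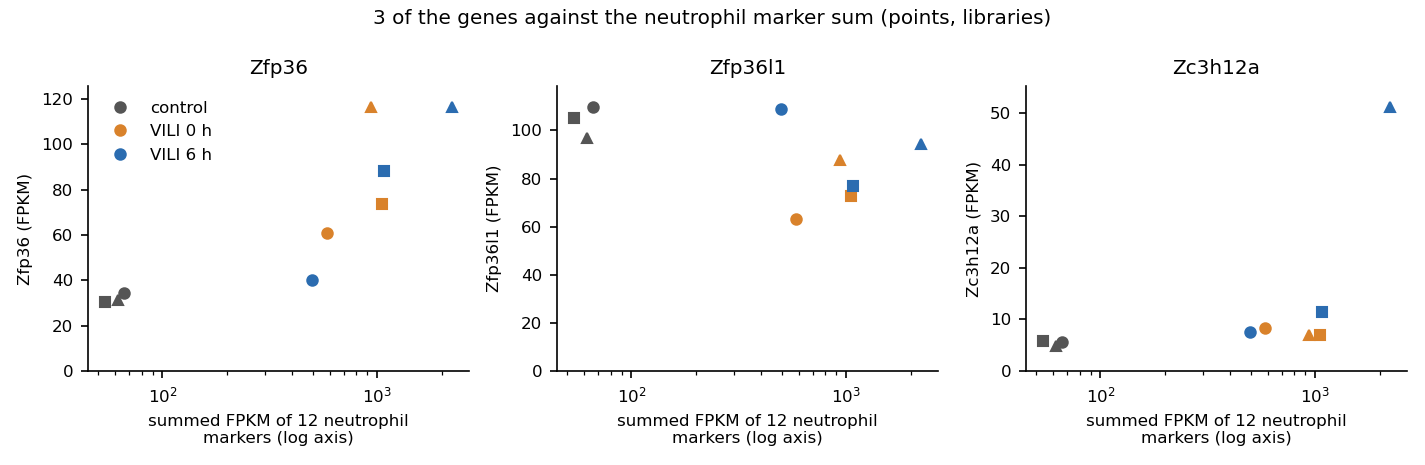
FPKM of Zfp36, Zfp36l1 and Zc3h12a (vertical axes) against the summed FPKM of 12 neutrophil markers (horizontal log axis) in the 9 libraries, coloured by group. The marker sum was 54.2 to 66.0 in control and 498 to 2218 in ventilated lungs, where Zc3h12a was 6.97 to 11.5 in 5 lungs and 51.2 in the lung with the highest sum.

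Zc3h12c, which encodes the related nuclease Regnase-3, was called in no comparison with all 9 libraries. It measured 7.55, 8.61 and 8.41 FPKM in control, 10.8, 9.30 and 10.2 in VILI 0 hours and 7.09, 10.4 and 13.1 in VILI 6 hours lungs. The VILI 0 hours values lay above the controls, and the VILI 6 hours values lay on both sides of them. At 0 hours the log2 difference from control was 0.30, with an interval of -0.15 to 0.74 (limma, adjusted p = 0.504). At 6 hours it was 0.27, with an interval of -0.17 to 0.72 (limma, adjusted p = 0.447). The latter was 0.07 without VILI 6 hours replicate 3 and 0.51 without VILI 6 hours replicate 1 (limma, adjusted p = 0.0275). The 0 hours difference passed the unadjusted threshold without VILI 6 hours replicate 1 (adjusted p = 0.181) and with only the 6 libraries compared (adjusted p = 0.111, limma). Between the time points the difference was -0.02, with an interval of -0.47 to 0.42. Part of the 0 hours sum came from a row with 1.92 FPKM in VILI 0 hours replicate 1 and at most 0.0165 in the other libraries.

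The Regnase pair stood in a different order at 6 hours, by a ratio chosen after the values had been seen and given with no test. In VILI 6 hours replicate 1 the values were close, 7.48 FPKM for Zc3h12a and 7.09 for Zc3h12c. Zc3h12a was 0.582 to 0.734 times Zc3h12c in the control lungs, 0.691 to 0.765 times at 0 hours and 1.06, 1.1 and 3.89 times at 6 hours, so that Zc3h12a was the lower of the pair in the 6 libraries of the first 2 groups and the higher in the 3 of the last.

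The Roquin genes showed small differences. Rc3h1 measured 20.6, 21.9 and 22.4 FPKM in control, 16.7, 21.8 and 21.2 in VILI 0 hours and 19.9, 19.2 and 22.4 in VILI 6 hours lungs, overlapping in each comparison. Its log2 difference was -0.13 (interval -0.40 to 0.14; limma, adjusted p = 0.641) at 0 hours, -0.08 (interval -0.35 to 0.19; adjusted p = 0.725) at 6 hours, where it was 0.05 with median-centred libraries, and 0.05 (interval -0.22 to 0.32) between the time points. A second Rc3h1 row, 1.83% of the gene, was listed at 0 in control replicate 2.

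Rc3h2 measured 19.9, 17.2 and 18.2 FPKM in control, 15.1, 16.3 and 17.0 in VILI 0 hours and 15.6, 15.8 and 17.2 in VILI 6 hours lungs. At 0 hours its values lay below the controls by a narrow margin, and at 6 hours they overlapped them. The log2 differences were -0.19 (interval -0.41 to 0.04; limma, adjusted p = 0.398) and -0.18 (interval -0.40 to 0.05; adjusted p = 0.328), and 0.01 (interval -0.22 to 0.23) between the time points.

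The third of the 3 rows of Rc3h2, with 22.1% of the gene, fell at 0 hours. It measured 4.88, 4.12 and 3.75 FPKM in control, 2.78, 3.05 and 3.1 in VILI 0 hours and 3.97, 4.32 and 3.69 in VILI 6 hours lungs. The VILI 0 hours values lay below those of both other groups. The row fell by 0.49 on the log2 scale against control (limma, adjusted p = 0.326) and rose by 0.41 from 0 to 6 hours (adjusted p = 0.643), but the first call was lost without control replicate 1 (-0.39) and the second without VILI 6 hours replicate 2 (0.35). The main row of Rc3h2, 70.9% of the gene, differed from control by -0.04 at 0 hours and -0.24 at 6 hours (limma, adjusted p = 0.943 and 0.465). Between the time points the main row differed by -0.20. Without VILI 6 hours replicate 3 it was at -0.36 at 6 hours and -0.31 between the time points. Both of these differences passed the unadjusted threshold with a library left out. The first row, 7% of the gene, measured 1.28, 1.56 and 1.31 FPKM in control, 0.541, 0.638 and 1.20 in VILI 0 hours and 1.63, 1.66 and 0.843 in VILI 6 hours lungs, with its VILI 0 hours values also below the controls. Its 0 hours difference was -0.80 (interval -1.62 to 0.03; limma, adjusted p = 0.472).

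Elavl1 measured 20.9, 17.2 and 17.3 FPKM in control, 15.7, 16.9 and 15.9 in VILI 0 hours and 20.1, 16.2 and 16.3 in VILI 6 hours lungs. At 0 hours the values lay below the controls and at 6 hours they overlapped them. Its log2 differences were -0.19 (interval -0.46 to 0.08; limma, adjusted p = 0.481), -0.08 (interval -0.35 to 0.19; adjusted p = 0.731) and, between the time points, 0.11 (interval -0.16 to 0.38; adjusted p = 0.81). The direction against control turned to 0.06 at 0 hours and 0.17 at 6 hours when only its highest row was used, and to 0.05 at 6 hours with median-centred libraries. Its lesser row measured 10.0 FPKM in control replicate 1 and 2.94 to 5.5 in the other libraries.

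By count, 2 of the 8 genes passed the unadjusted threshold at 0 hours, Zfp36 upward (6.81% of all genes were called higher) and Zfp36l1 downward (9.35% lower). At 6 hours 2 passed, Zfp36 and Zc3h12a, both upward, where 8.17% of all genes were called higher and 12.2% lower. None passed between the time points, where 5.06% of all genes were called higher and 4.94% lower, and at an adjusted p under 0.05 none passed in any of the 3 comparisons (limma). Without VILI 6 hours replicate 1, Zfp36, Zc3h12a and Zc3h12c passed that threshold at 6 hours and Zfp36 at 0 hours, while 4512 and 1343 of all genes did, against 136 and 55 with it. A count of 2 of 8 is close to the 16.2% and 20.4% called over all genes, so the count itself is no result about the members. The values of 7 members did not overlap between VILI 0 hours and control (4 above, 3 below), against 33.5% of all genes, 2 did not overlap between VILI 6 hours and control, against 24.6%, and 0 between the time points, against 12.5%. The median log2 fold change of the members was 0.02 at 0 hours, 0.03 at 6 hours and 0.03 between the time points, beside -0.07, -0.09 and -0.02 over all genes. The comparisons with control share the control libraries.

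**Figure D5:**
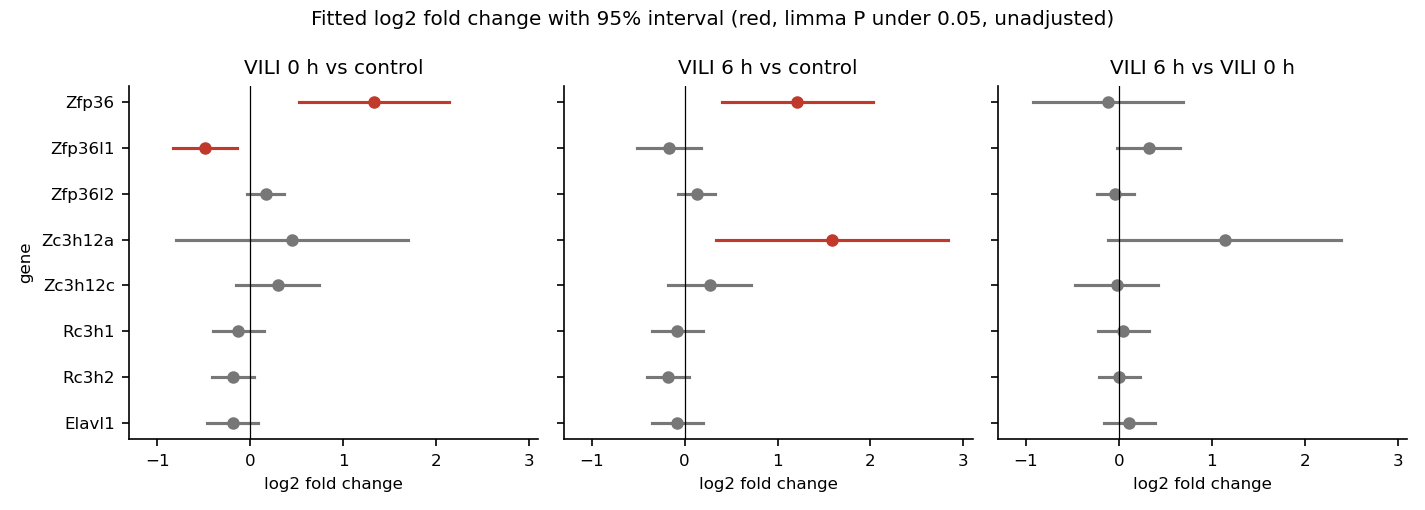
Fitted log2 fold changes (points) with 95% intervals (lines) of the 8 genes for VILI 0 h vs control, VILI 6 h vs control and VILI 6 h vs VILI 0 h, red where the unadjusted limma P was under 0.05. Zfp36 was at 1.33 and 1.21 against control and Zc3h12a at 1.59 at 6 h, with an interval of 0.34 to 2.84. Zc3h12a had the widest interval of the 8 genes in each comparison. The intervals of the Roquin genes and Elavl1 all include 0.

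In control lung Zfp36l1 (mean 103.9) exceeded Zfp36l2 (46.4), which exceeded Zfp36 (32.1), with no overlap between neighbours. Next came Rc3h1, Elavl1 and Rc3h2 at 18.4 to 21.6. Elavl1 overlapped both Rc3h1 and Rc3h2, which did not overlap each other. Then came Zc3h12c (8.19) and Zc3h12a (5.41), again without overlap. At 0 hours Zfp36 and Zfp36l1 overlapped at the top, both above Zfp36l2 (52.2), and the rest kept their order. At 6 hours Zc3h12a stood after Zfp36l2 by mean (23.4), all neighbours overlapped from Zfp36l1 down to Rc3h2 (16.2), and Zc3h12c (10.2) was lowest.

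The machinery through which these factors act was examined from lists chosen by function. Those lists and that of the targets below were chosen with earlier results of these data known. Their counts are to be read beside the shares of all genes called, 6.81% higher and 9.35% lower at 0 hours, 8.17% and 12.2% at 6 hours, and 5.06% and 4.94% between the time points, and most of the small counts are near these shares. Of 20 genes of deadenylation, 4 rose and 1 fell at 0 hours, 2 rose and 2 fell at 6 hours, and 1 fell between the time points (median log2 fold changes 0.03, -0.11 and -0.11). With median-centred libraries 7 rose and 0 fell at 0 hours, beside 10% and 6.36% of all genes. Under that setting 2 rose and 0 fell at 6 hours, beside 11.7% and 8.46%, and 3 fell between the time points, beside 5.08%. Without VILI 6 hours replicate 1 the 6 hours counts were 4 up and 3 down, 4 of them at an adjusted p under 0.05 (limma). Of all genes 12.8% were then called higher and 26% lower, and 23.3% passed that adjusted p. The list holds 5 BTG/TOB adaptors, which link CCR4-NOT to RNA-bound proteins, a subset seen after the values. Tob2 (0.92), Btg1 (0.70) and Btg2 (1.1) rose at 0 hours, while Btg3 (0.35) and Tob1 (0.17) did not pass the threshold. The 3 that rose had adjusted p of 0.0875, 0.179 and 0.17 in that order (limma). Tob2 measured 14.1, 12.9 and 13.8 FPKM in control, 28.1, 21.2 and 29 in VILI 0 hours and 14.6, 26.0 and 23.4 in VILI 6 hours lungs. It remained called at 6 hours (0.60), as did Btg1 (0.67).

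Btg2 measured 54.5, 47.9 and 48.4 FPKM in control, 80.2, 71.9 and 216 in VILI 0 hours and 57.4, 58.1 and 66.5 in VILI 6 hours lungs. Its rise was 0.60 without VILI 0 hours replicate 3, the highest library, and its fall from 0 to 6 hours was -0.83, or -0.33 without that library, a call lost in 6 of 18 alternatives. Tob2 lost its 6 hours call without VILI 6 hours replicate 2 (0.44) or replicate 3. Cnot10, a subunit of CCR4-NOT, fell by 0.24 at 0 hours and 0.28 at 6 hours, the latter call lost in 4 alternatives, among them median-centred libraries (-0.15). The other deadenylation calls, named after their values were seen, were Cnot11 upward at 0 hours (0.32) and the deadenylase Parn downward at 6 hours (-0.25).

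Decapping and 5′ to 3′ decay genes, 18 in all, gave 1 call in each direction at 0 hours, 2 downward at 6 hours and 1 in each direction between the time points (medians -0.05, -0.05 and -0.02). Edc3, an enhancer of decapping, rose at 0 hours from 8.58, 7.54 and 9.52 FPKM to 12.7, 11.5 and 12.4, a log2 change of 0.51 (limma, adjusted p = 0.134), and fell by 0.43 from 0 to 6 hours. Dcp2, the decapping enzyme, fell by 0.32 and 0.37 against control, calls that median-centring removed (-0.21 and -0.24) and that were lost in 6 and 3 of 18 alternatives. Ddx6 fell by 0.19 at 6 hours, a call lost in 11 of 18 alternatives. Lsm4 was called upward between the time points (0.42), a call lost with eBayes without a trend.

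Of 15 exosome genes, which encode the 3′ to 5′ degradation complex, 1 rose and 2 fell at 0 hours, 1 rose at 6 hours and 1 rose between the time points (medians -0.05, -0.06 and 0.01). Exosc4 rose by 0.30 and 0.35 against control, Exosc1 and Dis3 each fell by 0.30 at 0 hours and Exosc3 rose by 0.28 between the time points, and each of these calls was lost in 3 to 9 of 18 alternatives. Among 33 other CCCH proteins tested of 34 listed, 1 was called in each direction at 0 hours and at 6 hours and 1 upward between the time points (medians -0.02, 0.02 and -0.01). Those against control were Zc3h8 (-0.73 at 0 hours), Zc3h10 (0.34 at 0 hours), Tiparp (1.03 at 6 hours) and Toe1 (-0.41 at 6 hours), and that between the time points was N4bp1 (0.35), with adjusted p of 0.175 to 0.458 (limma). The protein of N4bp1 has no CCCH finger, so the name of the list does not cover it. The call of Zc3h10 was lost in 6 of 18 alternatives, that of Zc3h8 in 3 and that of Toe1 in 2. Those of Tiparp and N4bp1 were lost with eBayes without a trend. Without VILI 6 hours replicate 1 the genes called lower at 6 hours numbered 5 of 15 in the exosome list instead of 0, 8 of 33 among the other CCCH proteins instead of 1 and 5 of 18 in the decapping list instead of 2, beside 5040 (26%) in place of 2369 of all genes called lower.

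Arid5a, which binds stem-loops and opposes Regnase-1 on Il6 mRNA, rose beside Zfp36. Its FPKM was 2.88, 2.94 and 2.59 in control, 7.12, 6.86 and 8.5 in VILI 0 hours and 4.52, 10.9 and 11.2 in VILI 6 hours lungs. No ventilated lung overlapped the controls, and VILI 6 hours replicate 1 was again the lowest of them. The log2 change was 1.38 at 0 hours (limma, adjusted p = 0.0865) and 1.52 at 6 hours (adjusted p = 0.0598), the latter lost when only the highest row was used (0.75). Of 13 other AU-rich element binders tested of 15 listed, 1 rose and 1 fell at 0 hours, 2 rose and 1 fell at 6 hours and 1 rose between the time points (medians -0.04, 0.08 and 0.12). The remaining calls were Hnrnpab, up by 0.22 at 6 hours, a call lost in 8 of 18 alternatives, and by 0.29 between the time points, and Elavl2, which measured at most 0.46 FPKM in the 9 libraries and was called lower against control at both times.

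Kinases, proteases, ligases and their partners that act on the factors gave 1 call up and 2 down at 0 hours, 2 up and 1 down at 6 hours and 1 up between the time points among 15 genes (medians -0.12, 0.20 and 0.12). Without VILI 6 hours replicate 1 the 6 hours counts were 5 up and 4 down, beside 12.8% and 26% of all genes. Dusp1, the phosphatase that turns off p38 and so relieves ZFP36 of the inhibitory phosphorylation that MAPKAPK2 places on it, measured 53.9, 48.6 and 56.7 FPKM in control, 105.8, 78.7 and 496 in VILI 0 hours and 57.5, 137 and 180.1 in VILI 6 hours lungs. All ventilated lungs were above the controls. It rose by 1.60 at 0 hours (limma, adjusted p = 0.257), but by 0.78 without VILI 0 hours replicate 3, where the call was lost, as it was without each control in turn, and its 6 hours log2 difference was 1.09 (interval -0.33 to 2.50; adjusted p = 0.347).

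Mapkapk2 measured 40.4, 42.0 and 39.8 FPKM in control, 61.8, 46.1 and 43.2 in VILI 0 hours and 51.1, 54.3 and 69.1 in VILI 6 hours lungs, and it rose by 0.50 at 6 hours (limma, adjusted p = 0.136). Mapk14, the p38 kinase above it, differed from control by -0.12 (interval -0.49 to 0.26) and -0.15 (interval -0.52 to 0.23). Malt1, the protease that cleaves Regnase-1 and the Roquins, measured 6.90 to 9.02 FPKM in 8 libraries and 25.4 in VILI 6 hours replicate 3, the library in which Zc3h12a was highest, and its 6 hours difference was 0.54 (interval -0.25 to 1.33; adjusted p = 0.396). Bcl10, the partner of MALT1, rose by 0.47 at 6 hours and Map2k6, a kinase of p38, fell by 1.24, while Btrc and Ywhab fell by 0.39 and 0.24 at 0 hours, calls that median-centring removed and that were lost in 6 and 9 of 18 alternatives. Map2k3 was called upward between the time points (0.45), a call lost with eBayes without a trend.

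Of the known short-lived AU-rich or stem-loop targets of the factors, 29 tested of 30 listed, 5 rose and 1 fell at 0 hours, 14 rose and 1 fell at 6 hours, and 8 rose between the time points, with none under an adjusted p of 0.05 (limma), where 6.81%, 8.17% and 5.06% of all genes were called higher in the 3 comparisons. Their median log2 fold changes were 0.14, 1.31 and 0.84. Across the alternatives the 6 hours count of risers was lowest at 8 with control replicate 3 left out (5.59% of all genes called higher). It was highest at 16 with VILI 6 hours replicate 1 left out (12.8%). Without that library 13 of the targets passed an adjusted p of 0.05 at 6 hours and 5 between the time points, beside 4512 (23.3%) and 356 (1.84%) of all genes, and with only the 6 libraries compared 7 did so at 0 hours, beside 1597 (8.24%) of all genes (limma). The count of risers between the time points ranged from 2, without VILI 0 hours replicate 3, to 11, and that at 0 hours from 2, without VILI 0 hours replicate 2, to 6. Several of these genes are also expressed by neutrophils, whose marker sum was higher in the same lungs, and the part of neutrophils in these counts was not tested.

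Cxcl2, whose AU-rich window is printed above, measured 0.0463, 0.0538 and 0.122 FPKM in control, 0.45, 1.68 and 4.84 in VILI 0 hours and 2.30, 2.88 and 150.1 in VILI 6 hours lungs. Its 4 nonamers set it beside Csf2 (4) and Tnf (5) in this list, of which 12 of 29 held at least 1. The log2(FPKM + 0.1) change was 3.31 at 0 hours (limma, adjusted p = 0.289) and 5.90 at 6 hours (adjusted p = 0.0878), and with controls near 0.1 FPKM it depends on the pseudocount, from 1.40 to 4.32 at 0 hours and from 3.54 to 7 at 6 hours. The 6 hours change was 3.97 without VILI 6 hours replicate 3, the library at 150.1 FPKM. The 0 hours call was lost in 8 of 18 alternatives, among them a pseudocount of 1, and the 6 hours call in none. Il1b, with 3 TATTTAT cores, measured 3.27, 4.48 and 4.95 in control, 19.7, 32.5 and 82.7 in VILI 0 hours and 26.4, 14.0 and 83.4 in VILI 6 hours lungs, a rise of 3.14 and 2.88 (limma, adjusted p = 0.0757 and 0.0733), or 2.18 at 6 hours without VILI 6 hours replicate 3.

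Il6, a Regnase-1 and Roquin target, measured at most 0.386 FPKM in control and VILI 0 hours lungs and 0.306, 1.58 and 19.3 in VILI 6 hours lungs. Its 6 hours change of 2.93 (limma, adjusted p = 0.194) was 1.41 and no longer called without VILI 6 hours replicate 3, the library with the highest Zc3h12a, and was lost in 6 of 18 alternatives. Socs3, an inhibitor of cytokine signalling, measured 9.82 to 12.2 FPKM in the control lungs, 22.7 to 44.7 at 0 hours and 25.5 to 159 at 6 hours. Ccl2 and Ccl7, monocyte chemokines, rose by 3.48 and 3.70 from 0 to 6 hours (limma, adjusted p = 0.144 and 0.252), or by 2.22 and 1.91 with a pseudocount of 1 and 2.84 and 2.96 without VILI 6 hours replicate 3, Ccl2 from 0.221 to 0.911 FPKM up to 2.35 to 13.6. Lcn2 rose by 1.37 between the time points, or by 0.56 without VILI 6 hours replicate 3 (881 FPKM), a call lost in 4 of 18 alternatives. Tnf, the best known ZFP36 target, was not called and measured 0.369 to 1.79 FPKM in 8 libraries and 13.6 in VILI 6 hours replicate 3.

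The genes whose log2(FPKM + 0.1) followed Zfp36 most closely over the 9 libraries, among 14107 genes with a mean of at least 1 FPKM, were Fkbp14 (Pearson r = 0.99, Spearman rho = 0.933), Lipg (r = 0.989), A4galt (r = 0.988) and Pxdc1 (r = 0.988, rho = 1). Fkbp14, for example, measured 5.15 to 5.76 FPKM in control, 11.8, 13.6 and 21 in VILI 0 hours and 6.00, 17.0 and 22.8 in VILI 6 hours lungs, with VILI 6 hours replicate 1 close to control as for Zfp36. Their r over deviations from the group means was 0.968 to 0.988. For Zc3h12a the closest were Gm20186 (r = 0.993), Sdc4 (0.989), Ceacam1 (0.984) and C1qb (0.984), with rho of 0.883 to 0.9. Gm20186 was at 135 FPKM and Sdc4 at 395 in VILI 6 hours replicate 3 and at most 17.3 and 125 elsewhere, so these r rest largely on that library. The median r over all compared genes was -0.311 for Zfp36 and -0.322 for Zc3h12a, and the points share groups and libraries.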

How the data were processed

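Whole-lung RNA of 9 mice was analysed, 3 for each of the groups that the sample labels give. The deposited values were FPKM per row as the authors made them. Adapter, poly-N and low-quality reads had been removed, reads aligned with TopHat, transcripts assembled with Scripture and Cufflinks, and FPKM computed with Cuffdiff. The submitters' processing notes name GRCm38, TopHat2 2.0.9, Bowtie2 2.0.6 and Cuffdiff 2.1.1. The methods describe rRNA-depleted directional libraries on an Illumina HiSeq instrument, while the labels name another kit and model, so whether strand was kept is uncertain. A row's value divides reads among overlapping transcripts by estimation, so single rows are less certain than gene sums. Read totals were not used here.

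Of 23713 Ensembl gene IDs in the table, 23503 matched GENCODE M21, which gave the symbols, and FPKM was summed over the rows of each gene (60108 rows, 27203 genes or loci). Genes of a mean of at least 0.1 FPKM were tested on the log2(FPKM + 0.1) scale with limma 3.58.1 (R 4.3.3), whose moderated variances followed a mean trend, in a model of the 3 groups over all 9 libraries. P-values were adjusted by Benjamini-Hochberg over the 19378 genes, or over 37300 rows for single rows. The study's design, a call at an unadjusted P under 0.05, was kept. Single values were also tested by exact permutation. The procedure was tested on simulated data. Python 3.11.15, numpy 2.4.6, pandas 2.3.3, scipy 1.17.1 and matplotlib 3.10.9 were used.

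Alternatives were pseudocounts of 0.01 and 1, a mean of at least 1 FPKM, no filter, median-centred libraries, a replicate block, eBayes without a trend, the row with the highest mean in place of the sum, only the 6 libraries compared, and each library left out. Those for the lists of related genes and for single rows were added after seeing the data. The members, the lists and the rule for named genes were chosen with earlier results of these data known. Named were all members and their rows, the 4 genes most like Zfp36 and Zc3h12a, 4 regulators (Mapk14, Mapkapk2, Dusp1 and Malt1), and in each list and comparison up to 3 called genes of the largest change with a mean of at least 1 FPKM and no overlap of the groups. Genes named outside the rule (Col1a2, Col3a1, Lum, Btg3, Tob1, Tiparp, N4bp1, Elavl2, Cnot11, Parn, Lsm4, Map2k3, Tnf, Csf2, and Cnot10 at 0 hours) were chosen after their values were seen. Same-numbered libraries did not deviate together, with correlations of deviations from the group means of -0.221 to 0.0175, so the numbers were not taken to pair the mice. Promoter sequences came from RefSeq and 3′ UTRs from GENCODE M21, taking the transcript with the longest 3′ UTR of each gene.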

Additional observations from a re-analysis of the deposited data

How the results depend on the processing

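The 4 calls among the members, Zfp36 at 0 and 6 hours, Zfp36l1 at 0 hours and Zc3h12a at 6 hours, kept their direction and an unadjusted P under 0.05 in all 18 alternatives. With the replicate block the members called numbered 2, 2 and 0 as before, and the genes called 2816 at 0 hours, 3485 at 6 hours and 1693 between the time points, of which 10, 43 and 0 passed an adjusted p of 0.05, so no call of a member changed with the block. With only the 6 libraries compared, 5 members and 5094 genes were called at 0 hours and 1210 genes between the time points. With median-centred libraries 1 member was called between the time points, and the 6 hours log2 differences of Rc3h1 and Elavl1 became 0.047 and 0.049. With the highest row in place of the sum, Elavl1 was at 0.0579 at 0 hours and 0.17 at 6 hours, and between the time points Zfp36 was at 0.0653, Zc3h12c at 0.068 and Rc3h2 at -0.20.

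With each library left out, genes called ranged from 1979 (without control replicate 2) to 4493 at 0 hours, from 2543 to 7526 at 6 hours and from 1407 (without VILI 0 hours replicate 3) to 4350 between the time points, each highest count being without VILI 6 hours replicate 1. Members called between the time points ranged from 0 to 1. Signs changed for Elavl1 at 6 hours (-0.18 to 0.0125) and, between the time points, for Zfp36 (-0.44 to 0.33), Zfp36l2 (-0.0725 to 0.0168), Zc3h12c (-0.23 to 0.21), Rc3h1 (-0.0712 to 0.12) and Rc3h2 (-0.0397 to 0.0453), none of which was called. The cause was not tested. Without VILI 6 hours replicate 1, 3 members passed an adjusted p of 0.05 at 6 hours and 1 at 0 hours, and Zfp36 also passed it at 0 hours with only the 6 libraries compared.

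Limits are the 3 mice of a group, FPKM without read counts, rows without transcript names, and bulk tissue whose neutrophil marker sum differed between the groups.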
